A study of Mus musculus with 4 samples.

Results

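The cluster of miR-183, miR-96 and miR-182 is a group of 3 miRNA hairpins encoded side by side on mouse chromosome 6. Its miRNAs were taken from the deposited table by name as mmu-miR-182-5p, mmu-miR-182-3p, mmu-miR-96-5p, mmu-miR-183-5p and mmu-miR-183-3p (written below without the prefix for mouse), which are 5 of 1029 miRNA names and 447 of 85704 sequences in the table. These 5 were chosen by name with their CPM levels at the 2 ages already known, so the difference in level between the ages is given below as a description with no test. The remaining arm, miR-96-3p, is described beside them.

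The study used Ago-RP-Seq, in which a peptide of GW182 pulls the Ago proteins out of a tissue lysate and the short RNAs they hold are sequenced, and a read is thus an sRNA found in the RISC. The libraries came from cortex and hippocampus combined of male C57BL/6J mice, 2 libraries from mice of 2 months and 2 from mice of 18 months, with no treatment or transgene named for either age. The number of mice behind a library is not given in the sources used here, and the p-values therefore measure only the spread between libraries, which may be technical. Values are in CPM, read counts that the authors scaled to the same total in each library. The 2-month libraries are called young and the 18-month libraries old. Since 1 read covers 1 whole miRNA, the levels of different miRNAs were compared without division by length.

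The 3 miRNAs of the cluster are transcribed together and are best known from sensory organs, where they are abundant in photoreceptors and in the hair cells of the inner ear. An inherited change in the seed of miR-96 causes hearing loss in mice and people. A miRNA chooses its targets mainly by its seed, the bases that follow the first base at its 5′ end. A read that starts 1 base later therefore has a different seed, while a read that ends earlier keeps it.

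The mature sequences in RefSeq show how alike the 3 leading arms are, and all 6 arms matched an entry. They are printed 5′ to 3′ with the seed at bases 2 to 8 in capitals.
miR-182-5p: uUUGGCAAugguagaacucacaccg
miR-96-5p: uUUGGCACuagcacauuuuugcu
miR-183-5p: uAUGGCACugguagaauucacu
miR-182-3p: gUGGUUCUagacuugccaacu
miR-96-3p: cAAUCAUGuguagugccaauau
miR-183-3p: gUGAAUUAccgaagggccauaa

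miR-182-5p and miR-96-5p had the same 6mer seed at bases 2 to 7, UUGGCA, and differed at base 8. Among 1679 mature mouse miRNAs in RefSeq, miR-1271-5p was the only other miRNA with that 6mer seed, and it also shared base 8 with miR-96-5p. miR-183-5p has the 6mer seed AUGGCA, held by no other mature miRNA of RefSeq. Beyond the seed the likeness ran the other way. Over the first 22 bases, miR-182-5p was identical to miR-183-5p at 18 and to miR-96-5p at 12, and miR-96-5p was identical to miR-183-5p at 13.

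In GRCm38 the hairpins lie on the minus strand of chromosome 6, Mir183 at chr6:30169668-30169737, Mir96 at chr6:30169446-30169551 and Mir182 at chr6:30165918-30165992. Mir183 and Mir96 are 116 bases apart, Mir96 and Mir182 are 3453 bases apart, and the whole cluster spans 3820 bases. None of the 3 hairpins overlaps another annotated gene. The nearest protein-coding genes are Nrf1 (chr6:30047988-30153458, plus strand), which encodes a transcription factor of mitochondrial genes, and Ube2h (chr6:30211289-30304539, minus strand), which encodes a ubiquitin-conjugating enzyme. The noncoding gene Rncr4 lies beyond Mir183 on the opposite strand (chr6:30172893-30175126). The hairpins are printed from the RefSeq table for GRCm38.p6 with the mature arms in capitals, to show where each arm lies.
Mir183: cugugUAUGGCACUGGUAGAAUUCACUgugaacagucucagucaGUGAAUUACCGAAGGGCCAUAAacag
Mir96: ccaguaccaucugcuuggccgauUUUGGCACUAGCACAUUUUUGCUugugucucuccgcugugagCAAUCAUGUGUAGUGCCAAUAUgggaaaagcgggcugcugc
Mir182: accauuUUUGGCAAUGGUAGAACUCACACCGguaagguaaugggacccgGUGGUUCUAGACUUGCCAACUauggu

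The table rests on 10484940 and 11388999 reads in the young libraries and 10575081 and 9067007 reads in the old, so that 3 reads correspond to 0.263 to 0.331 CPM. Of these, 44991 and 76764 reads in the young libraries and 104254 and 77564 reads in the old belonged to the cluster. miRNAs known from neurons marked the tissue, with miR-124-3p at 69405 to 107034 CPM and the 7 neuron miRNAs together at 215698 to 249117 CPM.

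mmu-miR-182-5p was the most abundant miRNA of the cluster in each of the 4 libraries. It was found at 2692 and 4033 CPM in the 2-month libraries and at 6191 and 4902 CPM in the 18-month libraries. Averaged over the libraries it ranked 53rd of 1029 miRNAs, between miR-181b-5p and let-7e-5p, whose values of 3692 to 5117 CPM lay inside its own range. It made up 57.3% to 62.8% of the cluster's reads.

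mmu-miR-96-5p was second, at 1092 and 2123 CPM in the young libraries and 2606 and 2932 CPM in the old. It ranked 74th, and the values of its neighbours miR-151-5p and miR-300-3p, 1558 to 2824 CPM, again fell within its own range. The 2 young libraries were further apart than the 2 old ones for this miRNA, and its share of the cluster ran from 25.4% to 34.3%.

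mmu-miR-183-5p came next, at 487 and 554 CPM in the young libraries and 1013 and 680.4 CPM in the old. It ranked 132nd, between miR-106b-5p and miR-378a-3p, which were at 501 to 886 CPM and could not be told from it by their spread. It made up 7.95% to 11.3% of the cluster. The order miR-182-5p, miR-96-5p, miR-183-5p was the same in each library, and within each age the ranges of these 3 arms did not overlap.

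The 3p arms were far less abundant. mmu-miR-183-3p was at 14.7 and 18.2 CPM in the young libraries and 35.3 and 26.9 CPM in the old. mmu-miR-182-3p was at 5.53 and 11.8 CPM in the young libraries and 13.6 and 13.0 CPM in the old. These rest on 154 to 373 reads of miR-183-3p and 58 to 144 reads of miR-182-3p per library. miR-96-3p, the passenger of miR-96-5p, was at 2.86 and 4.22 CPM in the young libraries and 6.81 and 14.1 CPM in the old.

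**Figure D1:**
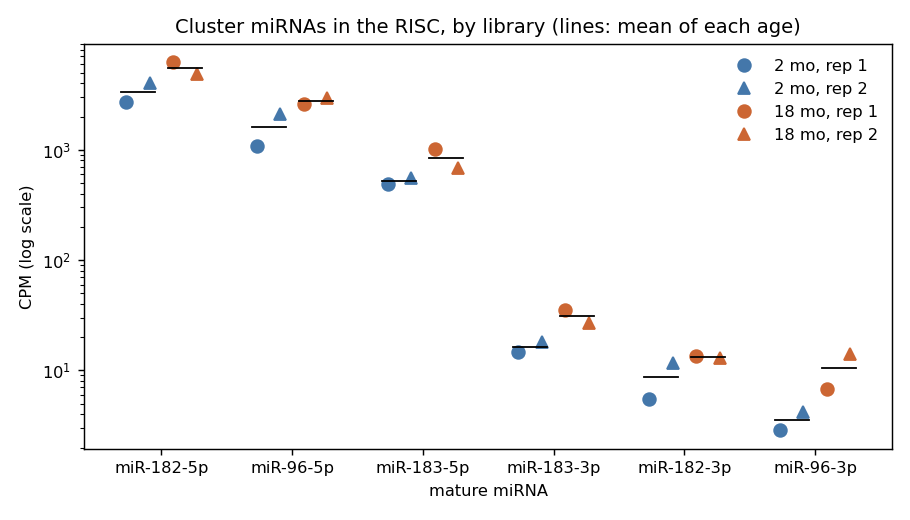
CPM of the cluster's miRNAs on a log axis, 1 point per library, with blue for 2 months, orange for 18 months, circles for replicate 1, triangles for replicate 2 and a line at the mean of each age. For each miRNA both orange points lie above both blue points, and miR-182-5p is the highest and miR-96-3p the lowest in the mean.

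For each of the 5 members both 18-month libraries lay above both 2-month libraries. The same held for 55 of 456 miRNAs with a mean of at least 10 CPM, or 12.1%. The members were proposed with this difference known, so nothing was read from the count. In bulk tissue, more cells that hold the cluster and more of it per cell cannot be told apart. The ratio of the mean at 18 months to the mean at 2 months was 1.65 for miR-182-5p, 1.72 for miR-96-5p and 1.63 for miR-183-5p. It was 1.89 for miR-183-3p, 1.54 for miR-182-3p and 2.96 for miR-96-3p. The ratio of miR-96-3p was 1.92 without 18-month replicate 2, and that of miR-182-3p was 2.41 without 2-month replicate 2.

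On the log2(CPM + 1) scale the difference was 0.74 (SE 0.27) for miR-182-5p, 0.86 (SE 0.34) for miR-96-5p and 0.68 (SE 0.26) for miR-183-5p. It was 0.88 (SE 0.28) for miR-183-3p and 0.65 (SE 0.39) for miR-182-3p. Over all 456 miRNAs the median difference was -0.22. With the libraries rescaled by the median of ratios, the median of all miRNAs was -0.02 and the differences of the members were 0.95, 1.07, 0.88, 1.07 and 0.84 in the same order. Together the 5 members held 4291 and 6740.2 CPM in the young libraries and 9858 and 8555 CPM in the old, or 0.429% to 0.986% of a library.

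The spread within an age was of the same order as the difference between the ages for part of the cluster. miR-96-5p was 0.96 higher on the log2 scale in replicate 2 than in replicate 1 in the young libraries, more than its difference between the ages, which was 0.38 without 2-month replicate 1. The difference of miR-182-3p was 0.17 without the same library. miR-183-5p was 0.57 lower in replicate 2 than in replicate 1 in the old.

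Reads of the same miRNA differ in where they start and end. Of the 447 sequences with a member's name, 103 had a mean of at least 1 CPM, and both 18-month libraries were above both 2-month libraries for 72 of these and below for 2. Over all 14286 sequences with that mean, 20.5% were above and 21.3% were below. By miRNA, 29 of 46 sequences of miR-182-5p, 21 of 28 of miR-96-5p, 16 of 20 of miR-183-5p, 5 of 7 of miR-183-3p and 1 of 2 of miR-182-3p were above. Sequences of 1 miRNA share their source and are no replicates of it. Both sequences that were below belonged to miR-182-5p.

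The commonest reads of the 3 leading arms are shown as DNA letters, with the 6mer seed at positions 2 to 7 in capitals, to show which end varied. For miR-182-5p all of them started at the same base and ended at different ones.
miR-182-5p, 20 nt: tTTGGCAatggtagaactca
miR-182-5p, 21 nt: tTTGGCAatggtagaactcac
miR-182-5p, 22 nt: tTTGGCAatggtagaactcaca
miR-182-5p, 25 nt: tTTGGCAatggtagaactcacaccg
miR-96-5p, 21 nt: tTTGGCActagcacatttttg
miR-96-5p, 22 nt: tTTGGCActagcacatttttgc
miR-96-5p, 23 nt: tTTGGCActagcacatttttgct
miR-183-5p, 22 nt: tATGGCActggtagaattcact
miR-183-5p, 21 nt: tATGGCActggtagaattcac
miR-183-5p, 23 nt: tATGGCActggtagaattcactg
miR-183-5p, shifted, 21 nt: aTGGCACtggtagaattcact

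The reads of miR-182-5p were shorter in both old libraries than in both young ones. Their mean length was 22.30 and 22.33 nt in the 2-month libraries and 21.96 and 21.99 nt in the 18-month libraries. The 2 libraries of an age were within 0.03 nt of each other, and the ages differed by -0.35 nt (SE 0.03). Over all miRNA reads the mean length was 21.61 and 21.59 nt in the young libraries and 21.55 and 21.61 nt in the old, and the ages overlapped.

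limma was then run on the read length of the 273 miRNAs that averaged 100 CPM or more, a test chosen after the data had been seen. miR-182-5p had the second most negative difference of the 273, with an unadjusted p of 0.000463 and a Benjamini-Hochberg adjusted p of 0.0731 by limma, so it failed the correction over all miRNAs. At an unadjusted p under 0.05, 31 of the 273 miRNAs, or 11.4%, were called shorter at 18 months and 3 longer, and none passed after adjustment. The exact two-sided permutation test of 2 libraries against 2 gave p = 0.333, the smallest that this design allows.

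The difference lay in both tails of the length distribution. Reads of 24 nt or more made up 26.5% (95% Wilson interval 26.0% to 27.0%) and 27.3% (26.9% to 27.8%) of miR-182-5p in the young libraries and 19.9% (19.6% to 20.2%) and 20.3% (19.9% to 20.7%) in the old. Reads of 20 nt or less made up 15.8% (15.3% to 16.2%) and 15.3% (14.9% to 15.6%) in the young libraries and 21.9% (21.6% to 22.2%) and 20.9% (20.5% to 21.2%) in the old. The libraries of the 2 ages were separated in both ranges. PCR copies are no independent molecules, and the intervals cover counting error only.

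The same is seen in the levels of single sequences that start at the RefSeq 5′ end and match the hairpin along their whole length. The 20-nt read was at 362 and 521 CPM in the young libraries and at 1147 and 856 CPM in the old, a ratio of means of 2.27. The 22-nt read was at 619 and 937 CPM in the young libraries and at 1593 and 1156 CPM in the old, a ratio of 1.77. The 25-nt read, the full length in RefSeq, was at 371 and 576 CPM in the young libraries and at 645 and 496 CPM in the old, a ratio of 1.21, and the ages overlapped. From 19 to 23 nt each of the 5 sequences was above in both old libraries, to be read beside the share of 20.5% given earlier. From 24 to 26 nt all 3 overlapped, and the 26-nt read was at only 3.78 to 6.43 CPM. The members were proposed with their higher old level known, so nothing was read from these counts.

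**Figure D2:**
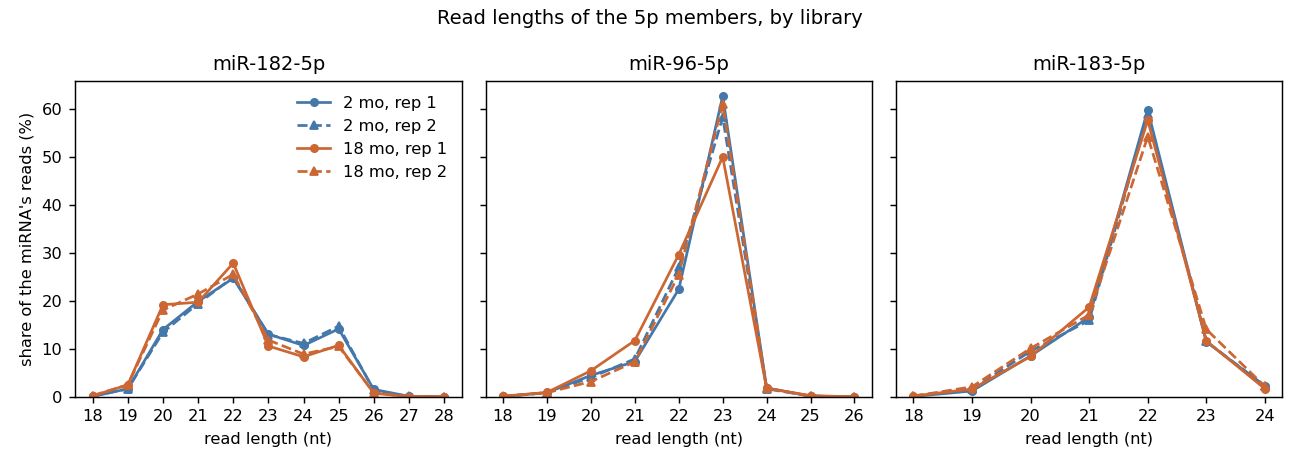
Share of the reads of miR-182-5p, miR-96-5p and miR-183-5p at each read length from 18 nt upward, in percent of that miRNA's reads, 1 line per library with blue for 2 months and orange for 18 months, solid for replicate 1 and dashed for replicate 2. In miR-182-5p the orange lines lie above the blue ones at 20 nt (19.2% and 18.1% against 14.0% and 13.4%) and below at 25 nt (10.7% and 10.5% against 14.2% and 14.8%).

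The length differences of the other 2 leading arms were smaller. The mean length of miR-96-5p was 22.48 and 22.43 nt in the young libraries and 22.28 and 22.48 nt in the old, so the ages overlapped and differed by -0.07 nt (SE 0.08, limma adjusted p = 0.741). The mean length of miR-183-5p was 21.78 and 21.76 nt in the young libraries and 21.74 and 21.74 nt in the old, a difference of -0.03 nt (SE 0.03, limma adjusted p = 0.741). Whether the difference of miR-182-5p exceeded that of the other members was not tested.

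**Figure D3:**
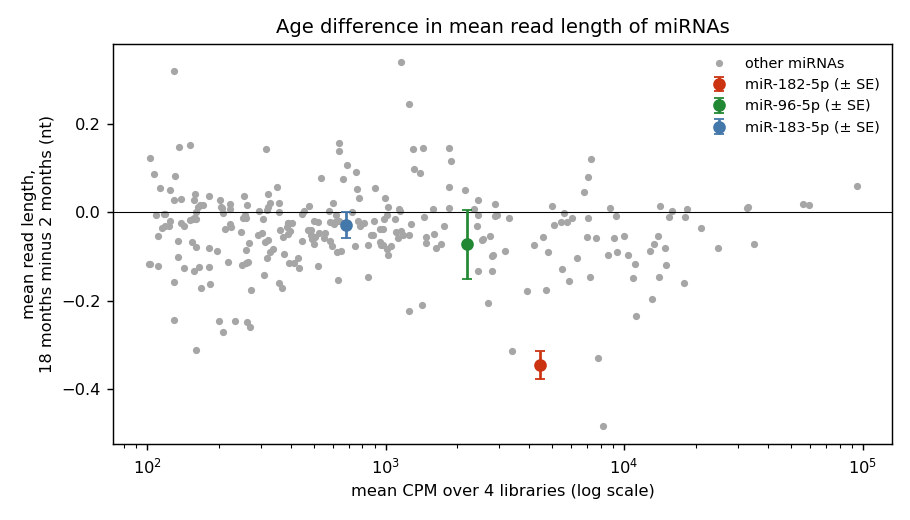
Difference in mean read length between 18 and 2 months, in nt, against mean CPM on a log axis for 273 miRNAs with a mean of at least 100 CPM, with the 3 leading arms of the cluster in colour and bars for their SE from limma. miR-182-5p lies at -0.35 nt, while miR-96-5p and miR-183-5p lie at -0.07 and -0.03 nt, near the median of -0.04 nt over all 273.

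At the 5′ end, which sets the seed, miR-182-5p and miR-96-5p were nearly uniform. Reads with the RefSeq start made up 98.0% of miR-182-5p in each library and 97.1% to 98.5% of miR-96-5p. miR-183-5p was more varied. Its leading seed was carried by 82.4% of its reads on average, the 44th lowest of 273 miRNAs, whose median was 96.8%.

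The reads of miR-183-5p that started 1 base downstream have the seed UGGCAC in place of AUGGCA. They made up 14.6% (95% Wilson interval 13.6% to 15.6%) and 15.1% (14.2% to 16.0%) of miR-183-5p in the young libraries and 17.5% (16.8% to 18.3%) and 17.1% (16.1% to 18.0%) in the old. Both old libraries were above both young ones, with an exact two-sided permutation p of 0.333, the smallest possible here. In levels, the shifted reads were at 71.0 and 83.7 CPM in the young libraries and 178 and 116 CPM in the old, a ratio of 1.90. The reads with the RefSeq start were at 410 and 462 CPM in the young libraries and 824 and 554 CPM in the old, a ratio of 1.58.

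Across all 273 miRNAs, the log2 odds of the leading seed were compared with limma, again a test chosen after the data were seen. The difference was -0.23 (SE 0.15) for miR-183-5p, with an adjusted p of 0.879 by limma, and 5.13% of the miRNAs were called in either direction at an unadjusted p under 0.05. None of the 3 leading arms was among them.

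miR-182-3p and miR-183-3p mostly started 1 base downstream of the RefSeq end, as shown by their commonest reads.
miR-182-3p, 20 nt: tGGTTCTagacttgccaact
miR-182-3p, RefSeq start, 21 nt: gTGGTTCtagacttgccaact
miR-183-3p, 21 nt: tGAATTAccgaagggccataa
The shifted start made up 84.5% and 85.1% of miR-182-3p in the young libraries and 93.8% and 86.4% in the old, with a 95% Wilson interval as wide as 73.1% to 91.6% in the library with 58 reads. It made up 92.5% to 97.1% of miR-183-3p, with the ages overlapping. The seed printed in RefSeq for these 2 arms was therefore carried by a minority of their reads in the RISC. miR-96-3p went the other way, with 73.6% to 93.8% of its 30 to 128 reads per library at the RefSeq start.

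**Figure D4:**
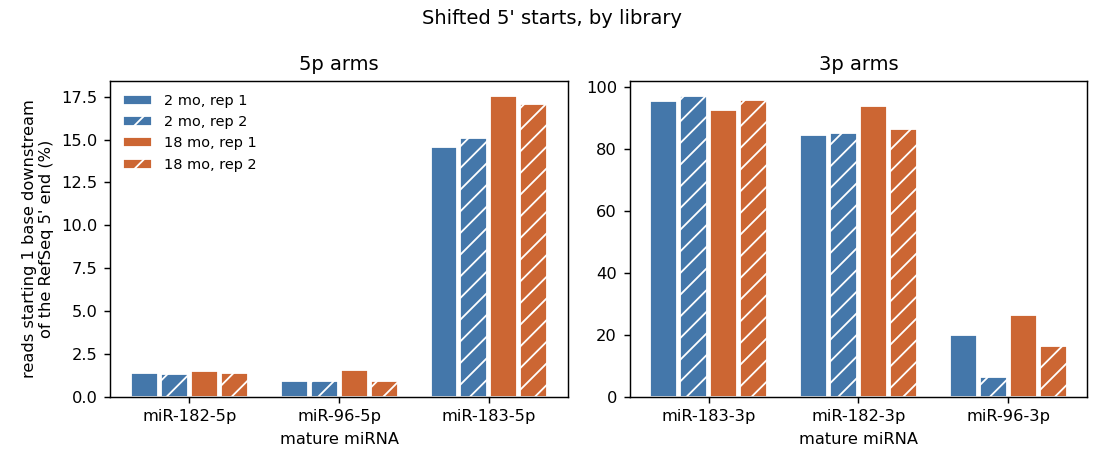
Share of reads that start 1 base downstream of the RefSeq 5′ end, in percent of each miRNA's reads, 1 bar per library with blue for 2 months, orange for 18 months and hatching for replicate 2, with 5p arms on the left and 3p arms on the right. Among the 5p arms miR-183-5p stands at 14.6% to 17.5% and the other 2 below 2%, while miR-183-3p and miR-182-3p stand above 80%, and miR-96-3p stands at 6.25% to 26.4%.

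Some reads ended in up to 3 bases that did not match the hairpin at their position, counted here as tails. For miR-96-5p these include reads that end in the hairpin's own GCT after a shortened run of T. Its share therefore mixes missing bases with added ones. Such tails were found on 5.25% to 5.62% of miR-182-5p reads and 4.11% to 5.73% of miR-96-5p reads, with the ages overlapping for both. For miR-183-5p the share was 2.90% and 2.61% in the young libraries and 3.11% and 3.70% in the old. Here the ages did not overlap, with an exact two-sided permutation p of 0.333, the smallest possible. U was the commonest tail of miR-182-5p, at 2.29% of its reads on average against 1.65% for A. A was the commonest tail of miR-96-5p, at 2.78%, and of miR-183-5p, at 2.08%. No deposited read of miR-182-3p had a tail, which at 58 to 144 reads per library allows a share of up to 2.08% to 5.17% of such reads. The authors removed rare reads before deposit, so tailed sequences with few reads could be missing, and the limit does not cover them. Tails were more common on miR-183-3p, at 21.4% and 29.0% of its reads in the young libraries and 30.0% and 29.5% in the old, with a 95% Wilson interval of 15.7% to 28.6% in the library with 154 reads.

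The balance of the arms strongly favoured 5p. There were 487 and 343 reads of miR-182-5p per read of miR-182-3p in the young libraries and 455 and 377 in the old, and by size this log2 ratio ranked number 4 of the 142 hairpins whose arms both averaged 10 CPM or more. For miR-183 the ratio was 33.2 and 30.5 in the young libraries and 28.7 and 25.3 in the old, and it ranked 41st. Compared between the ages by limma over all 142 hairpins, also chosen after the data were seen, 2.82% were called at an unadjusted p under 0.05. The log2 ratio of miR-182 differed by 0.09 (SE 0.32, adjusted p = 0.906) and that of miR-183 by -0.20 (SE 0.29, adjusted p = 0.906) in limma.

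The ratios between the leading arms varied more between libraries of 1 age than between the ages. miR-182-5p exceeded miR-183-5p 5.53-fold and 7.28-fold in the young libraries and 6.11-fold and 7.21-fold in the old. miR-96-5p exceeded miR-183-5p 2.24-fold and 3.83-fold in the young libraries and 2.57-fold and 4.31-fold in the old. miR-182-5p exceeded miR-96-5p 2.47-fold and 1.90-fold in the young libraries and 2.38-fold and 1.67-fold in the old. Within each ratio the ages overlapped, while each of the 3 ratios separated the libraries numbered 1 from those numbered 2.

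In all, 39 isoform measures and ratios were compared between the ages by exact two-sided permutation tests of 2 libraries against 2. The ages did not overlap in 13 of the 39. Ages assigned to the libraries at random would separate a measure with a probability of 0.333, so nothing was read from this count. The smallest p was 0.333, the least this design can give, and each adjusted p was 1.

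The deposited table gives for each 6mer seed a viability, the mean survival of 3 mouse cell lines transfected with an RNA duplex that carries the seed, in percent of the control. UUGGCA, the shared seed of miR-182-5p and miR-96-5p, had a viability of 52.5%, and AUGGCA, the leading seed of miR-183-5p, had 69.0%. The shifted seed of miR-183-5p, UGGCAC, had a lower viability of 40.0%. Averaged over its reads, miR-183-5p had a viability of 64.3% and 64.0% in the young libraries and 63.4% and 63.5% in the old, a difference of -0.69 percentage points, with an exact permutation p of 0.333. For the whole cluster the mean was 53.9% and 53.5% in the young libraries and 53.6% and 53.4% in the old, and the ages overlapped.

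The start that a 3p arm used also went with another viability. The seed GGUUCU of the common miR-182-3p read had 48.1%, against 92.9% for UGGUUC at the RefSeq start. For miR-183-3p the seeds differed less, at 74.1% for GAAUUA in the common read and 69.5% for UGAAUU at the RefSeq start.

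The cluster held nearly all CPM of the leading seeds of its 5p arms. Of all CPM with the seed UUGGCA, 99.0% carried the name of miR-182-5p or miR-96-5p, and this seed ranked 30th of 3925 seeds by summed CPM. miR-183-5p held 98.5% of AUGGCA, which ranked 123rd. UGGCAC, which ranked 250th, was drawn from 2 members, since shifted reads of both miR-183-5p (112 CPM on average) and miR-96-5p (23.7 CPM) carry it. Together they held 93.4% of it. The RefSeq seeds of the 3p arms came mostly from elsewhere, with 9.94% of UGGUUC carrying the name of miR-182-3p and 12.8% of UGAAUU that of miR-183-3p.

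miRNAs of other cell types were examined beside the cluster, from lists chosen with earlier results of these data known. In the miR-200 family, miRNAs known from epithelia, 5 of 5 miRNAs were above in both old libraries, against the 12.1% of all miRNAs given above. Their summed level was 28970 and 49884 CPM in the young libraries and 60617 and 66546 CPM in the old. miR-429-3p, a member of that family, was at 5149 and 8625 CPM in the young libraries and at 12046 and 11065 CPM in the old. The part of the cells that hold these miRNAs in the cluster's levels was not tested.

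Of the other lists, only the immune one held a miRNA that was above in both old libraries. Over all 456 miRNAs, 41.4% were below in both old libraries, and the counts below are to be read beside that share. For the 5 choroid plexus miRNAs, 0 were above and 0 below, and their sum was 2215 and 2715 CPM in the young libraries and 2300 and 2944 CPM in the old. For the 5 miRNAs of pineal and pituitary, 0 were above and 2 below, and their sum was 374 to 382 CPM in the young libraries and 262 to 336 CPM in the old. Of the 7 neuron miRNAs 0 were above and 2 below, and of the 3 oligodendrocyte miRNAs 0 were above and 0 below. Of the 2 endothelial miRNAs 1 was below. Of the 6 immune miRNAs 1 was above and 2 were below. The 1 above was miR-155-5p, at 3.34 and 3.25 CPM in the young libraries and 3.88 and 4.96 CPM in the old. Of the 3 red blood cell miRNAs 0 were above and 1 was below, miR-486a-5p, which the table lists jointly with miR-486b-5p. The lists were counted without the filter of 10 CPM, and miR-155-5p, miR-1912-3p and miR-483-3p averaged less than that, so they are not among the 456.

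The miRNAs outside the cluster whose log2(CPM + 1) followed that of the summed cluster most closely were miR-429-3p (Pearson r = 0.997), miR-200a-5p (r = 0.993) and miR-330-3p (r = 0.992), over 4 libraries and 270 miRNAs with a mean of at least 100 CPM. miR-200a-5p was at 109 and 149 CPM in the young libraries and 208 and 174 CPM in the old. With 4 points that share their library and depth, these values are a description only. Between members r was 0.926 for miR-182-5p and miR-183-5p, 0.915 for miR-182-5p and miR-96-5p and 0.706 for miR-96-5p and miR-183-5p, the closest pair on the chromosome.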

How the data were processed

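Ago-bound RNA was gel-extracted at 19 to 35 nt, per the labels, and sequenced in 4 libraries, 2 per age, assigned by the sample labels; the labels give 250 mg of tissue. The table holds reads of 15 to 33 nt. The authors trimmed the reads (Trim Galore is named in the submitters' notes), removed rare reads, matched the rest to mouse small RNAs by BLAST and deposited CPM per sequence, scaled per library. Aligner settings and tool versions are not given in the sources used here. The authors also deposited a score, the 6mer seed viability in percent of control.

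Whole reads were recovered from the CPM values (100% came out whole). Sequences were summed by miRNA name and placed on the RefSeq hairpins (GRCm38.p6). A tail is up to 3 unmatched bases after at least 14 matched ones. limma 3.58.1 in R 4.3.3 was fitted two-sided to log2(CPM + 1) over miRNAs that averaged 10 CPM or more and sequences that averaged 1 CPM or more, with age as the only term. The limma comparisons of read length, leading seed and arm ratio were added after the data were seen. Isoform measures and ratios were tested by exact permutation of the libraries. Alternatives were a block for the replicate number, pseudocounts of 0.1 and 5, other filters, rescaling by the median of ratios, limma without or with a trend, edgeR 4.0.16 and DESeq2 1.42.0 on the recovered reads, other choices of the sequences summed and each library left out. The fits of miRNA level and read length were tested on simulated data with changes larger than those of the members. That test does not cover differences of the members' size. Python 3.11.15 with pandas 2.3.3 and scipy 1.17.1 was used.

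The members and the miRNA lists were chosen with earlier results of these data known. Named miRNAs are the members, miR-96-3p, those of the lists, the 3 most like the cluster and the neighbours in rank of each leading arm. The plan for named sequences was the 3 most abundant of each member and its most abundant shifted one. Of these, the text prints the 3 most abundant of each leading arm and the most abundant shifted one of miR-183-5p. For miR-182-3p and miR-183-3p it prints the most abundant one. The 25-nt read of miR-182-5p, its reads by length and the RefSeq-start read of miR-182-3p were chosen after their values were seen. A further column of summed values was not used.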

Additional observations from a re-analysis of the deposited data

Results flagged for a closer look

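Sequences that the table assigns to a cluster hairpin without a miRNA name lie outside the sums above. There were 288 of them, and their sum had a mean of 87.9 CPM over the 4 libraries. The 0.263 to 0.331 CPM that 3 reads are worth applies to a single sequence and not to this sum. Their summed level was 51.9 and 80.1 CPM in the young libraries and 113 and 106 CPM in the old ones. Of these, 251 differed from the hairpin at 1 base, and A-to-G was the most abundant kind of difference, at 21.9 CPM, ahead of G-to-A at 15.4 CPM and U-to-C at 14.7 CPM. The kinds of difference were not compared with the error rate of the sequencing.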

How the results depend on the processing

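In each alternative run, the log2 differences of the members tested stayed positive, which leaves out both 3p arms at a filter of 100 CPM. That of miR-183-3p was 1.14 with edgeR and 1.13 with DESeq2. Without 1 library at a time, the differences ran from 0.45 to 1.03 for miR-182-5p, 0.38 to 1.34 for miR-96-5p, 0.39 to 0.96 for miR-183-5p, 0.69 to 1.06 for miR-183-3p and 0.17 to 1.13 for miR-182-3p. Of the members' single sequences, 191 of 447 lay above in both old libraries with no filter and 28 of 33 at a mean of at least 10 CPM. The filters change how many were counted. The share of all sequences lying above was not taken at these 2 filters, so nothing was read from the counts. The median log2 difference over all member sequences tested, whether above or not, was 0.74 in the main run. It became 0.37 with a pseudocount of 5 and 0.23 with no filter.

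The shortening of miR-182-5p ran from -0.36 to -0.33 nt without 1 library, with adjusted p of 0.312 to 0.372. That of miR-96-5p ran from -0.17 nt without 18-month replicate 2 to 0.027 nt without 18-month replicate 1, so its direction rests on 1 library. The log2 odds of the leading seed ran from -0.019 to 0.020 for miR-182-5p and from -0.63 to 0.21 for miR-96-5p, and the log2 arm ratio of miR-182 from -0.10 to 0.28, also without 1 library at a time. With only sequences of at least 1 CPM, the age difference in 5′ start was 0 for miR-182-3p and miR-183-3p, since a single start was left, and the cluster held 99.96% of UUGGCA and 99.5% of AUGGCA.

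The labels do not say whether same-numbered libraries were prepared together. The deviations of same-numbered libraries from the age means correlated at r = 0.18 over 456 miRNAs in these 2 pairs. With a replicate block, the difference in length of miR-182-5p was again -0.35 nt, with an adjusted p of 0.214 by limma. Depth limits the 3p arms most, at 30 to 373 reads per library.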
